A study of Gallus gallus with 6 samples.

Results

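The genes described here were the predicted miRNA targets whose names stood in the target list of every stage of the developing chick heart. They were chosen by their presence in the deposited lists. Each library had 1 list of predicted targets, the second column of each list was read as the target name, and a name was kept when it was found in all 6 lists. Of 1220 names in all, 102 were kept, which was 8.36% of the names. Since presence in the lists chose these genes, presence is given as a description, with no test.

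The libraries were 6 small RNA libraries of Gallus gallus heart. Embryos were taken on day 4 (Hamburger-Hamilton stage 24), day 6 (stage 29), day 8 (stage 34), day 10 (stage 36), day 12 (stage 38) and day 14 (stage 40). The labels name no treatment, strain or genotype, and the RNA of a stage is described as a pool. With 1 library per stage, stages were not tested against each other. The target lists hold computed predictions and not measured mRNA: a name says that a site had been predicted for one of the miRNAs that the list covers, and says nothing of the level of the gene in the heart.

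A miRNA is a short RNA that guides an Argonaute protein to messenger RNAs. Pairing of its seed, the bases 2 to 8 from its 5′ end, with a site in the messenger lowers translation or stability of that messenger. Target prediction programs search messengers for such sites and score the pairing. One miRNA can therefore have a great many predicted targets, and which genes are listed for a library depends on which miRNAs were put through the prediction.

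Each list covered 10 miRNAs, and 24 different miRNAs stood in the 6 lists. Only let-7a and let-7j stood in all 6. The miRNAs miR-101, miR-103, miR-133a and miR-135a each stood in 4 lists, and 7 miRNAs stood in 1 list. The sequences below are the most abundant sequence of each family in the deposited lists of known miRNAs, read as DNA letters, with the seed in capitals. They are shown because these families stood in 4 or more lists, together with miR-16, the miRNA with the most names beside it.
let-7: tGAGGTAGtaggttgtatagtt
miR-101: gTACAGTActgtgataactga
miR-103 and miR-107: aGCAGCATtgtacagggctatga
miR-133: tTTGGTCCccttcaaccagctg
miR-135: tATGGCTTtttattcctatgtga
miR-181: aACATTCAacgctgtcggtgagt
miR-16: tAGCAGCAcgtaaatattggtg
The seeds shown were all different, but not all were unrelated. The sequence of miR-103 and miR-107 begins with AGCAGCA, which is the seed of miR-16. let-7a and let-7j belong to 1 family. The same holds for miR-181a-5p with miR-181b, and for miR-133a with miR-133b and miR-133c. The most abundant sequence of miR-103 stood on a line that names miR-107 too. The 10 miRNAs of a list were therefore fewer than 10 seeds. On day 10, for instance, the list held let-7a and let-7j, miR-103 and miR-107, and all of miR-133a, miR-133b and miR-133c.

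**Figure D1:**
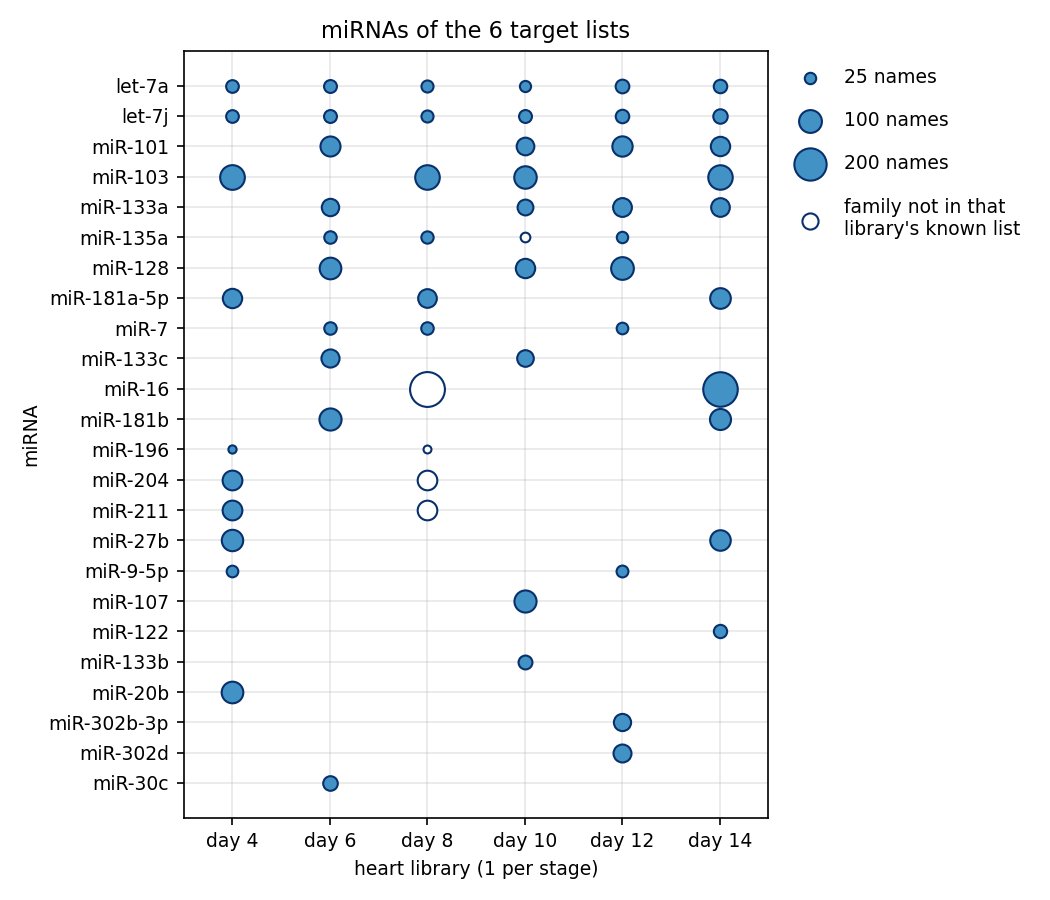
The miRNAs of the 6 target lists, by library (x axis, 1 library per stage) and miRNA (y axis). The area of a circle grows with the number of target names beside the miRNA in that list, and an open circle marks a miRNA whose family was not in that library's list of known miRNAs. let-7a and let-7j stood in all 6 lists, with 24 to 40 names each.

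The family of the listed miRNA was found among the known miRNAs of the same library in 55 of 60 cases. The other cases were miR-135a on day 10 and miR-16, miR-196, miR-204 and miR-211 on day 8. On day 8, 393 of the 691 lines with a name were lines of these miRNAs, and on day 10, 18 of 535. These are counts of lines only, since names could not be read together with the miRNA on their line, as described below. The deposited known lists differed in length class between libraries: 45 of 51 sequences on day 8 were 23 nt long and 71 of 76 on day 10 were 21 nt long, whereas on days 4, 6, 12 and 14 the commonest length was 22 nt. Reads assigned to known miRNAs ranged from 15957 on day 14 to 7660483 on day 12. Reads of the let-7 family numbered 213, 25483, 403, 29971, 942068 and 516 in order of day. As shares of the known reads of each list these were 1.25%, 0.775%, 0.0479%, 1.73%, 12.3% and 3.23%. By either measure day 12 was highest, while day 14 was low in reads and second in share. Depth and length class differed between these lists, and their part in these orders was not tested. On day 12, 941694 of the 942068 reads carried the seed shown above.

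Of the markers of the labelled tissue, the striated muscle miRNA miR-133 was in the known lists of every day but day 4, and from day 6 to day 14 its reads numbered 3020, 102, 4598, 17548 and 222. The shares of known reads were 0.0919%, 0.0121%, 0.265%, 0.229% and 1.39%, highest on day 14. miR-499, which is encoded in a myosin heavy chain gene, was listed on day 10 only, as 1 sequence with 712093 reads. These were 41% of the known reads of that day, so the other day 10 shares are to be read beside it. miR-1 and miR-208 were not among the known sequences used here in any library. miR-206, a miRNA of skeletal muscle, had 164 reads on day 6 and 341 on day 12.

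In order of day, the target lists held 618, 547, 691, 535, 514 and 840 names. Each name stood exactly once in a list. The 102 genes made up 16.5%, 18.6%, 14.8%, 19.1%, 19.8% and 12.1% of these lists in order of day. By the rule the same 102 names were in every list, so this share only restates the length of the list. Just outside the rule stood 76 names in exactly 5 lists. Of these, 32 were missing on day 4 and 27 on day 8. Each of the other lists lacked 3 to 6 of them. The names missing only on day 4 included EGFR, the epidermal growth factor receptor, FSTL1, a secreted follistatin-like glycoprotein, and PHB, prohibitin of the inner mitochondrial membrane. Those missing only on day 8 included HIF1A, the oxygen-regulated transcription factor, CDK6, a kinase of the G1 phase, and TBX2, a T-box repressor of the atrioventricular canal.

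**Figure D2:**
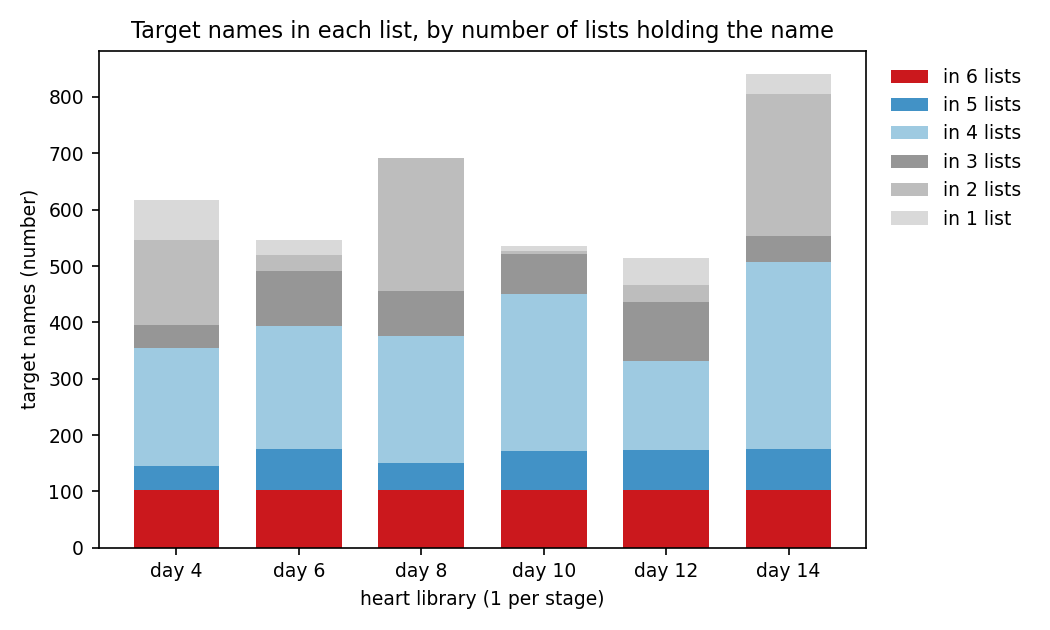
Number of target names (y axis) in the list of each library (x axis), stacked by the number of lists that hold the name. The red segment is the same 102 names in every bar, while the lists run from 514 names on day 12 to 840 on day 14.

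Most names stood in the same set of lists as some miRNA did. Of 63 possible sets of lists, 38 were seen among the names, and the miRNAs had 18 different sets, all 6 lists included. For 939 of the 1118 names in fewer than 6 lists (84%), the set of lists was the same as that of at least 1 miRNA. The most frequent set was days 8 and 14, with 172 names, and miR-16 stood in exactly these lists. Days 4, 8, 10 and 14, the lists of miR-103, had 130 names. Days 6, 10, 12 and 14, the lists of both miR-101 and miR-133a, had 127. All 6 lists, the set of let-7a and let-7j, came next with the 102 genes described here. Days 4, 6, 8 and 14 had 67, a set that no single miRNA had but that miR-181a-5p and miR-181b cover together. The lines of let-7a and let-7j numbered 62, 64, 56, 56, 71 and 75 in order of day, fewer than 102 in every list. The lists of miR-103 and those of miR-101 or miR-133a together also cover all 6. Which miRNAs placed a member in the lists was not tested.

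**Figure D3:**
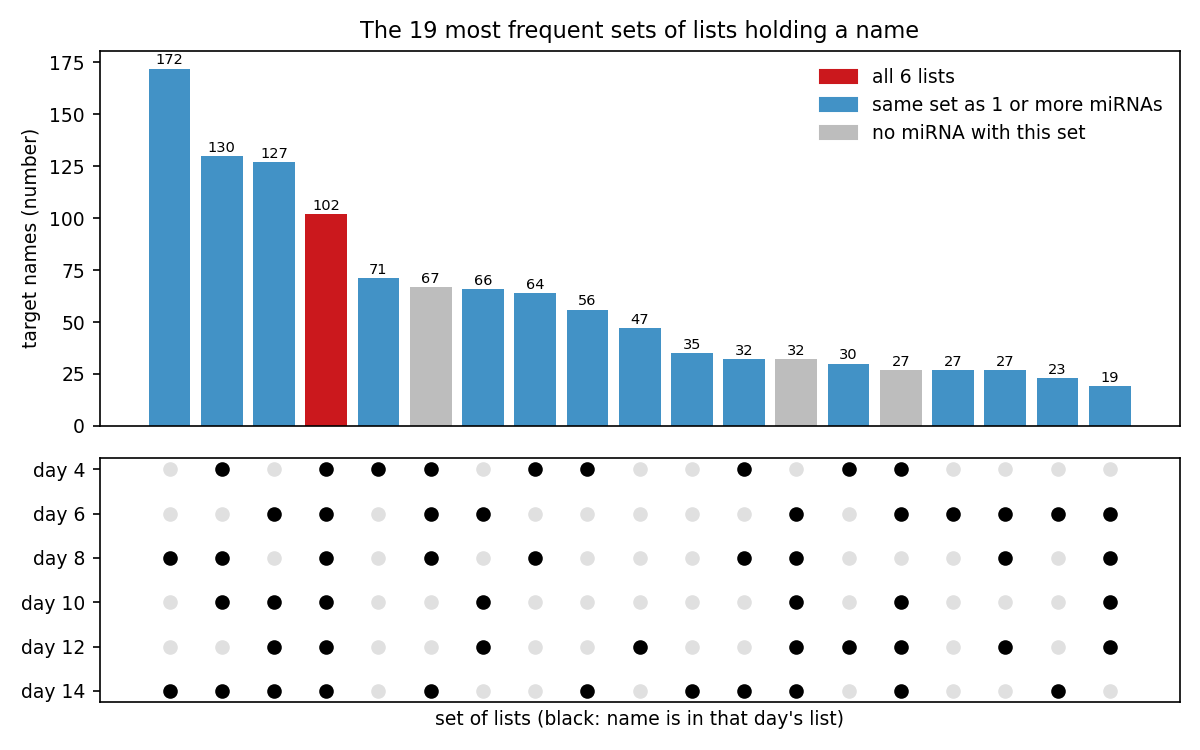
Number of target names (upper y axis) for the 19 most frequent sets of lists, with the days of each set as black points in the lower panel. Blue bars are sets that 1 or more miRNAs also have, grey bars sets that no miRNA has, and the red bar, with 102 names, is presence in all 6 lists, which let-7a and let-7j also have.

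The names could not be read together with the miRNA on their line. For the 17 miRNAs in 2 or more lists, each pair of lists was compared, 71 comparisons in all. Of 3751 names beside a miRNA in the earlier list of a pair, 2505 were found somewhere in the later list, but only 319 stood beside the same miRNA there, 8.5% of all and 12.7% of those found. The pairs of score and energy beside a miRNA recurred in 77.4% of cases. For let-7a, 3.33% of names and 78.1% of score and energy pairs recurred, and none of the 172 different names beside it stood beside it in all 6 lists. For miR-16 the shares were 22.3% and 74.3%. No member stood beside 1 miRNA throughout: 14 members stood beside 4 different miRNAs over the 6 lists, 44 beside 5 and 44 beside 6. RICTOR, for example, stood beside miR-204 on days 4 and 8, and beside miR-128, miR-133a, miR-302d and miR-16 on the other days. Only let-7a and let-7j stood in all 6 lists, so a member beside any other miRNA had to change miRNA. Different miRNAs of 1 family were counted apart, and each name stood once in a list. The counts of different miRNAs alone therefore could not show whether a name belonged to the miRNA on its line. In every list the names ran alphabetically within the lines of each miRNA. Since few names recurred beside the same miRNA, while most pairs of score and energy did, no miRNA, score or energy is assigned below. For each gene only the presence of its name is described.

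**Figure D4:**
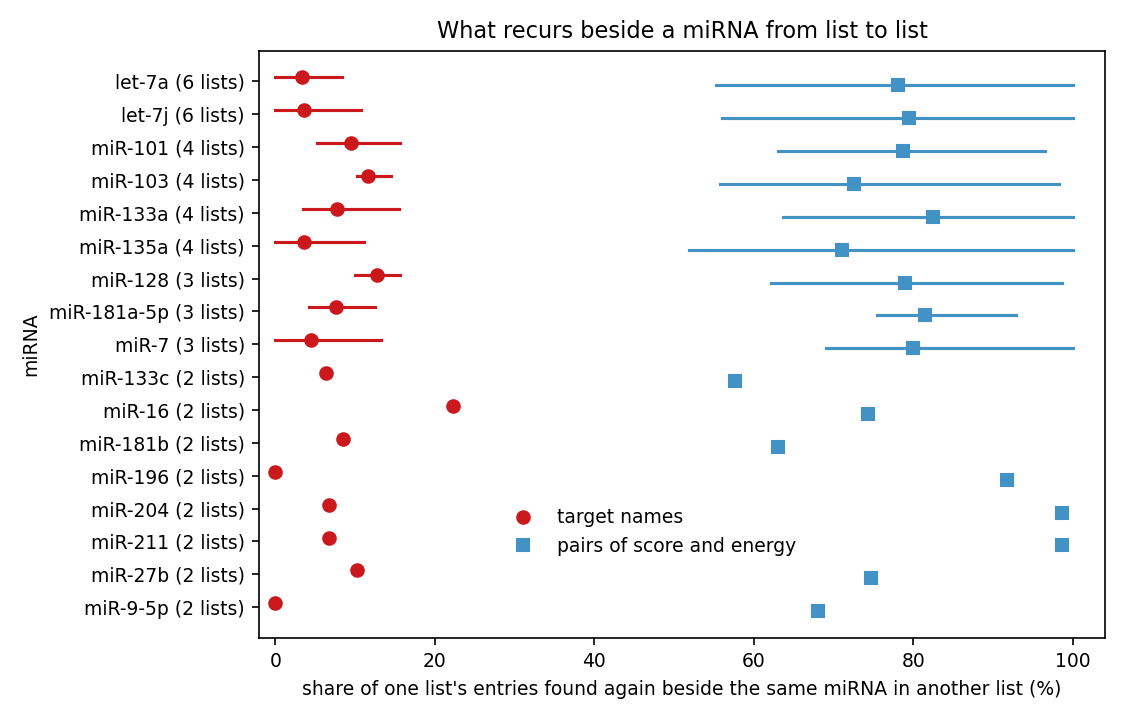
Share of a list's entries found again beside the same miRNA in a later list (x axis, percent), for each miRNA in 2 or more lists (y axis). Red circles are target names and blue squares pairs of score and energy, pooled over the list pairs, and lines run from the lowest to the highest list pair. For let-7a, 3.33% of names and 78.1% of score and energy pairs recurred.

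By the form of their names, 62 of the 102 members were gene symbols, 14 were UniProt entry names (short protein names such as SOMA), 25 were UniProt accessions and 1 was a non-coding RNA. Accessions made up 24.5% of the members and 23.4% of all names. Of the 77 members that were not accessions, 66 matched a gene of the RefSeq chicken annotation (assembly GRCg7b), 65 by symbol and 1 by synonym, and all 66 were protein coding. The accessions, such as Q5ZJ78 and F1NB19, could not be matched to a gene and are counted without a function. BZW1 and CLK1 were next to each other among the protein-coding genes of that annotation, the only such pair among the members.

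The functions of the members were described with 17 gene lists, which were written with the names already known, so a list's count is no independent evidence about its function. In all, 69 members fell in at least 1 list, 4 of them in 2 lists. Of the 517 names in any gene list 13.3% were members, against 8.36% of all names, a difference that the choice of the lists can set, since it began from the members. The gene lists with the most members were chromatin and transcription with 10, membrane traffic with 8, and RNA processing, immune genes and metabolism with 6 each. The counts of single gene lists below are to be read beside the same 13.3% and 8.36%, and none was tested.

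**Figure D5:**
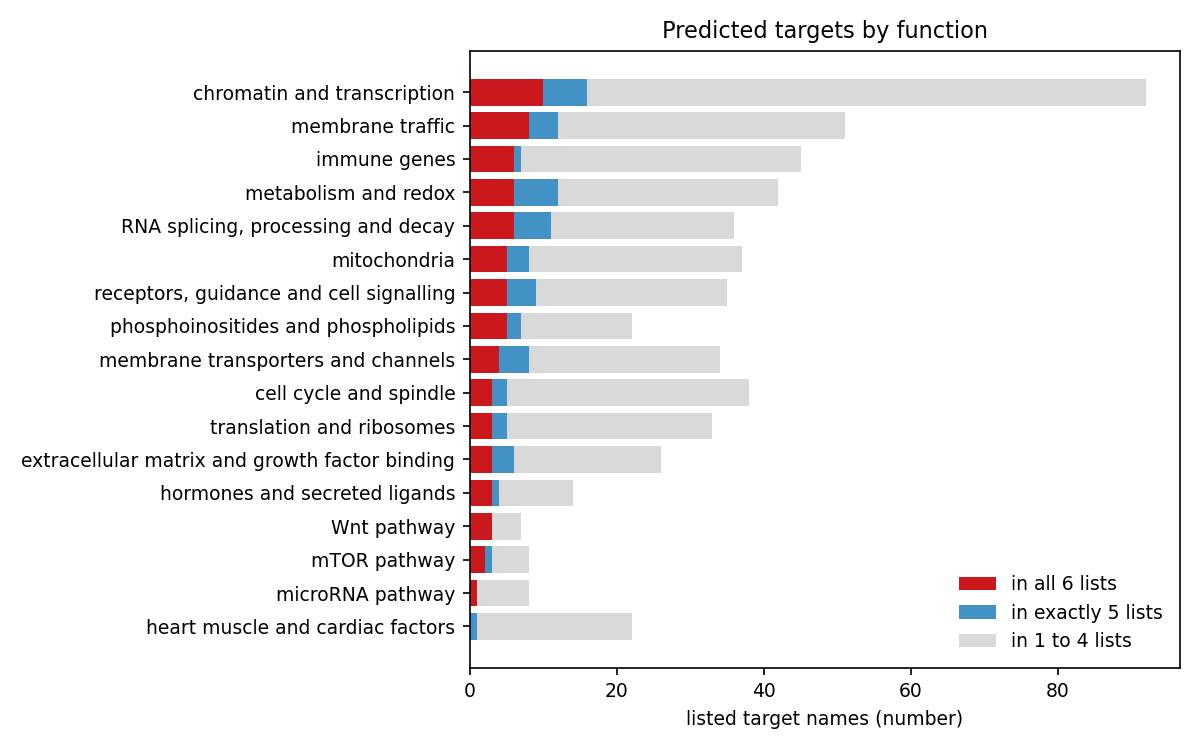
Number of listed target names (x axis) in each of the 17 gene lists (y axis; a name can be in more than 1), split by whether the name was in all 6 lists (red), exactly 5 (blue) or 1 to 4 (grey). Chromatin and transcription had 10 members of 92 listed names, and heart muscle and cardiac factors had none of 22.

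Proteins that act on RNA were listed at every stage. Of 36 listed names placed in the gene list of RNA splicing, processing and decay, 6 were members (16.7%). CELF1 and MBNL1 are splicing regulators with opposed action on many exons, known in mouse for the switch of splicing patterns as the heart matures. TRA2A is a serine and arginine rich splicing factor, and CLK1 is a kinase that phosphorylates such factors. ERH is a small nuclear protein of RNA processing complexes, and DHX40 is a helicase of the DEAH-box family. A further 5 names placed in this gene list stood in exactly 5 target lists. Among them were DHX33, a related helicase missing on day 4, and CPEB3, which binds messenger 3′ ends and was also missing on day 4.

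The gene list of the miRNA pathway was broad and also held names not particular to miRNAs, such as MAEL and TDRD7. Of its 8 listed names, 1 was a member. This was DGCR8, the RNA-binding partner of Drosha in the cutting of primary miRNA transcripts. LIN28, the protein that blocks let-7 maturation, stood in 4 lists, on days 4, 8, 10 and 14. EIF2C3, an older symbol of an Argonaute, stood in 4 lists and TNRC6A, a partner of Argonaute in silencing, in 2.

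Translation had 3 members of 33 listed genes (9.09%). EIF2B5 encodes the catalytic subunit of the exchange factor that recharges eIF2 with GTP. BZW1 resembles eIF5 and tunes the choice of start codons. MTRF1 is a release factor of mitochondrial translation and counts among the mitochondrial genes too. The ribosome was also represented by 5S rRNA, the only non-coding member. The other 7 non-coding names stood in fewer lists: SCARNA23, SNORA52, SNORA76 and SNOZ39 in 4, SNORD127 in 3, SCARNA4 in 2 and U6 in 1. These are small nuclear and nucleolar RNAs and are not messengers.

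Mitochondrial genes numbered 5 of 37. ATP5I is a small subunit of ATP synthase, NDUFAF6 an assembly factor of complex I, TOMM34 a chaperone partner in protein import and MYO19 an actin motor that sits on the outer membrane. MTRF1 completes the group. A further 3 genes of the group stood in exactly 5 lists, among them ETFA, a subunit of an electron transfer flavoprotein, which was missing on day 4.

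Growth signalling through mTOR, the kinase that couples nutrients and growth factors to cell growth, had 2 members of 8 listed genes. The share over all names was 8.36%, and 8 genes are too few to set this list apart. RICTOR is the defining subunit of mTOR complex 2, and LTOR3 is a part of the Ragulator complex that anchors mTOR complex 1 on lysosomes. MIOS, of the nutrient-sensing GATOR2 complex, stood in 5 lists, RPTOR, the defining subunit of mTOR complex 1, in 4, TSC2 in 2 and RPS6KB1 in 1. Both mTOR complexes were thus represented, with RICTOR at 6 stages and RPTOR on days 6, 10, 12 and 14.

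Of 22 listed names placed in the gene list of phosphoinositides and phospholipids, 5 were members (22.7%, beside 8.36% over all names, not tested). PIK3C2G is a class II phosphoinositide 3-kinase, and PITPNB carries phosphatidylinositol between membranes. CPNE1 is a copine, which binds phospholipid with calcium, MBOAT1 reacylates lysophospholipids, and PLA2G12B belongs to the secreted phospholipase A2 family. ITPK1 and INPP4A, enzymes of inositol phosphates and phosphoinositides, stood in 5 lists.

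Membrane traffic had 8 members of 51 (15.7%), spread over the secretory and endosomal routes. SPCS2 is a subunit of the signal peptidase of the endoplasmic reticulum and SEC31B an outer coat protein of COPII vesicles. NECAP2 works with clathrin adaptors. RAB14 is a small GTPase between the Golgi and endosomes, WDR44 an effector of Rab11, and SNX4 a sorting nexin of recycling endosomes. SPG11 takes part in the re-formation of lysosomes. KLRAQ1 is listed under an older symbol, and RefSeq gives the gene as PPP1R21.

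Chromatin and transcription gave the most members, 10 of 92 listed genes (10.9%). TRRAP is the large scaffold of histone acetyltransferase complexes, and PCGF6 the subunit that defines a non-canonical Polycomb complex. CDK19 is a kinase of Mediator, and SUB1 a coactivator that binds single-stranded DNA. LBR anchors heterochromatin and lamin B at the inner nuclear membrane. DNA-binding members were CDX1, a homeobox factor of the posterior body axis, TEF, a basic leucine zipper factor of the clock output, and the zinc finger protein ZBTB44. PHTF1 and PYGO1 were the other members placed in this gene list, and no role in transcription is claimed here for PHTF1. The Polycomb genes EZH2 and EED each stood in 1 list, on day 12 and day 6, and RNF2 stood in 3.

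Of 22 listed names placed in the gene list of heart muscle and cardiac factors, 0 were members, beside 8.36% over all names. The 25 accessions among the members could not be looked up. This gene list was broad and also held names not particular to heart muscle, such as ACTN1, CALD1, CSRP1, MLRM, JPH1 and PHKA1. The 22 names are too few to set this list apart. Of the 22, 4 stood in 1 list, 10 in 2, 2 in 3, 5 in 4 and 1 in 5. The 10 in 2 lists all stood on days 8 and 14 alone. Of all 350 names in exactly 2 lists, 172 stood on these days, the most frequent set of any. The gene list was written with the names known, and a difference of its names from others was not tested. Among the 10 were TBX5, a T-box activator needed for the chambers and septa, and TNNI1, a troponin I. LMOD2, an actin filament nucleator of the sarcomere, and FABP3, the fatty acid carrier of heart muscle, were others. MYL3 and MYL4, myosin light chains, and AT2A2, the calcium pump of the sarcoplasmic reticulum, each stood in 4 lists. MYL3 and AT2A2 were listed on days 4, 6, 8 and 14, and MYL4 on days 4, 8, 10 and 14. TBX2 came nearest, being missing on day 8 alone.

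Among genes of the extracellular matrix, 3 of 26 were members (11.5%). FBN1 is fibrillin-1, the main protein of microfibrils in the walls of large arteries and in valves. CRIM1 is a membrane protein that binds bone morphogenetic proteins through cysteine-rich repeats, and CPXM2 is a carboxypeptidase-like secreted protein. LTBP1, which ties latent TGF-beta to microfibrils, and ENG, endoglin of endothelial cells, each stood in 4 lists. COL1A1, the main collagen of the cardiac skeleton, was listed on day 14 only.

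Receptors, guidance and cell signalling had 5 members of 35 (14.3%). EPHA3 is an ephrin receptor, known in mouse for the endocardial cushions of the atrioventricular canal. PKN3 is a protein kinase, LIN7A is a PDZ scaffold of cell junctions and synapses, and PLEKHH1 carries pleckstrin homology and FERM domains. ARHGEF10L completes the group. The Wnt list had 3 members of only 7 listed genes, beside 8.36% over all names. So few names, in a list written with the members known, do not set it apart. PYGO1 couples beta-catenin to chromatin, CCDC88C binds Dishevelled, and TAX1BP3 is a PDZ protein that binds beta-catenin. WNT3A, a ligand of the pathway, stood in 4 lists, on days 6, 10, 12 and 14.

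Genes known from the immune system numbered 6 of 45 (13.3%). IL4 is a cytokine of T helper cells, DNTT adds untemplated nucleotides to antigen receptor genes, and GLL9 is gallinacin-9, an avian beta-defensin. KLHL6 is a ubiquitin ligase adaptor of B cells, HVCN1 a proton channel of phagocytes and B cells, and CRLF3 an orphan cytokine receptor-like factor. Secreted hormones and ligands had 3 members of 14, too few names to set beside the 8.36% over all names. They were IL4 again, SOMA, which is growth hormone, and SECR, which is secretin. These genes are best known in lymphoid tissue, the pituitary and the gut, and their listing here measures predicted sites only.

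Metabolism and redox gave 6 members of 42 (14.3%). PFKFB2 makes and removes fructose 2,6-bisphosphate, the activator of glycolysis, and is the isoform of mammalian heart. PRDX1 is a peroxiredoxin that removes hydrogen peroxide, and CHAC2 breaks down glutathione. AS3MT methylates arsenic, and B4GALT5 adds galactose in the making of lactosylceramide. C11ORF54 completes the group. Membrane transporters and channels had 4 members of 34 (11.8%): SLC12A4, a potassium and chloride cotransporter, SLC16A5, of the monocarboxylate transporter family, NTCP7, of the sodium and bile acid cotransporter family, and HVCN1.

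Of 38 listed names placed in the gene list of cell cycle and spindle, 3 were members (7.89%), near the 8.36% over all names. SKA3 holds kinetochores on spindle microtubules, TBB6 is a beta-tubulin and LRRC49 is a subunit of a tubulin-modifying complex. No role in the cell cycle is claimed here for TBB6 or LRRC49. Named members outside the gene lists were ASB12, a SOCS box protein, EEPD1, an endonuclease-like protein of DNA repair in human cells, GGNB2, C17ORF67, C19ORF6, C3ORF77 and FAM166A.

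Some members have a relative of the same gene family, complex or pathway that was also listed, but not at every stage. In 14 pairs of a member and a related listed gene, picked after their values were seen, the relative stood in 1 list for 1 pair, in 2 lists for 4, in 3 for 1, in 4 for 7 and in 5 for 1, and could not stand in 6 because relatives were taken from the non-members. CDK8, the other Mediator kinase, was listed on days 4, 8, 10 and 14. BZW2, PHTF2, EPHA5, SNX14, ZBTB10 and RPTOR were all listed on days 6, 10, 12 and 14. Over all names, 29.1% stood in 4 lists and 28.7% in 2, and 127 names stood on days 6, 10, 12 and 14. The days of the relatives are therefore no trait of relatives, and no difference from other names was tested. CHAC1 and SLC12A3 stood on days 4 and 14, B4GALT2 on days 8 and 14, EIF2B3 on days 4 and 12, and GLL13 on days 6, 10 and 12.

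The lists of the stages overlapped to different extents. Days 8 and 14 shared 568 names, 82.2% of the day 8 list and 67.6% of the day 14 list. Days 6 and 12 shared 415, 75.9% and 80.7% of each. Days 4 and 12 shared 188, 30.4% and 36.6% of each and the fewest of any pair of lists, and the 102 members were among them.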

How the data were processed

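Pooled hearts of 1 stage gave 1 small RNA library. The authors describe mapping unique reads to the chicken genome with BLAT and naming known miRNAs with miRBase. The deposited sample records name TopHat and Cufflinks as processing tools, without versions. Read counts per known miRNA were deposited by the authors, and a sequence was counted once per name. Target scores and duplex energies were deposited by the authors beside each name. For target prediction the paper names TargetScan, PicTar and miRanda. The lowest score was 141 and every energy was below -20 kcal/mol. Reads were used in place of the planned RPM values.

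Names were set to upper case and the ending _CHICK was removed. Left out were 29 lines without a name. Sets were compared in Python 3.11.15, and the steps were tested on simulated lists. Every member is accounted for by gene list or name form, and values are printed for few others. The members and gene lists were chosen with earlier results of these data known. No set test was run. Reads are a single library's counts and show counting depth only. Coordinates were used only to find members next to each other within the RefSeq annotation. The authors' coordinates were not used, because that annotation is of another assembly than their genome.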

Additional observations from a re-analysis of the deposited data

How the results depend on the processing

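The count of 102 names was 102 with the names exactly as deposited and 102 with names of the same RefSeq gene counted once, a choice made after seeing the data. It was 76 without the non-coding name and the accessions. Leaving out 1 library at a time gave 105 to 134 names, with 134 without day 4 and 129 without day 8. Presence in at least 5 of 6 lists gave 178 names. Leaving out a list, or requiring 5 lists, can only keep or raise these counts and those of the gene lists. The direction of these changes was therefore fixed by the rule, and only their size is described. Without the lines of let-7a and let-7j, the miRNAs in all 6 lists, the count of names was 53. Since names recur beside other miRNAs from list to list, this last value drops whichever names stood on those lines. Names in any gene list numbered 69 among the members, 69 to 87 with 1 library left out and 111 with at least 5 lists. The share of names in a gene list that were members was 13.3%, and 7.65% without the let-7 lines, beside 8.36% and 4.44% over all names. Of the counts in single gene lists, 97 stayed within 1.5 times the main count with 1 library left out and 5 did not: without day 4, mitochondria gave 8 and extracellular matrix 5, and without day 8, cell cycle 5, metabolism 10 and heart muscle 1. With presence in at least 5 of 6 lists, 7 of the 17 single gene list counts stayed within 1.5 times the main count and 10 did not. Requiring 2 lines in each list gave no value, because each name stood once in a list. No paired analysis was possible because each stage had 1 library. No replicate bounds any value here.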
